A study of Mus musculus with 43 samples.

Results

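The 45 genes described here are known to act in the repair of damaged DNA, in the signalling of that damage, or, for 1 of them, in breaking down bleomycin itself. They were chosen by gene symbol from knowledge of repair pathways, with earlier results of these data known. All 45 were found among the 21938 protein-coding genes of the count table and passed the filter on low counts, which 14836 genes passed. RNA of the inferior lung lobe of mice was sequenced in 43 libraries of 3 groups. There were 10 libraries of control mice that received vehicle, 16 of bleomycin mice that received the nintedanib vehicle (called vehicle mice below) and 17 of bleomycin mice that received nintedanib (nintedanib mice). By the series title, the bleomycin mice are a model of idiopathic pulmonary fibrosis checked by spirometry. What vehicle the control mice received is not named, so a difference in vehicle and bleomycin cannot be told apart in the comparisons with them. The labels give no strain, sex, age, dose, route or day. Each library is taken as 1 mouse, and edgeR p-values set differences between groups against the spread between libraries, estimated over all 3 groups.

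Bleomycin is an antitumour antibiotic that, with iron and oxygen, cuts DNA on 1 or both strands, and nintedanib inhibits the receptor tyrosine kinases of VEGF, FGF and PDGF. Breaks of both strands are rejoined either by homologous recombination, which copies an intact sister chromatid and so works mainly after replication, or by end joining, which ligates the ends in any phase of the cell cycle. Breaks of 1 strand and oxidised bases are mended by base excision repair, crosslinks by the Fanconi proteins, and copying errors by mismatch repair. The kinases Atm and Atr signal damage to the checkpoint kinases Chek2 and Chek1. Many genes of homologous recombination are transcribed mainly in dividing cells, so that their level in whole tissue also follows how many cells divide. The comparison of vehicle with control mice asks how these genes stand in the bleomycin lung, and that of nintedanib with vehicle mice whether the drug moves them.

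Library totals ran from 13138281 to 19111457 counts, and a gene's biological coefficient of variation had a median of 13.6%. Values per mouse are CPM, the usual unit of counts set relative to the library total, with totals scaled by TMM factors, which correct for differences in library composition. Defining lung markers were abundant in all libraries: the lowest value of Sftpc, of alveolar type 2 cells, was 8790 CPM and that of Ager, of alveolar type 1 cells, was 1270 CPM. Other cell types moved with the groups. The macrophage marker Cd68 had medians of 31.3, 168 and 154 CPM in control, vehicle and nintedanib mice, and the endothelial marker Cldn5 538, 261 and 265 CPM. The fat marker Adipoq was at 1 CPM or more in 8 control, 0 vehicle and 5 nintedanib libraries. In whole tissue, fewer cells of a type and less RNA per cell cannot be told apart, and the part of these shifts in the results below was not tested except where values are given. The library names fall into 3 number series of 33, 4 and 6 libraries (A, B and C) whose meaning the labels do not give. All 3 groups are present in series A and C, and 1 of 10 control libraries lay outside series A.

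In vehicle against control mice, 26 of the 45 repair genes rose, 6 fell and 13 did not pass the test (edgeR quasi-likelihood test, adjusted p under 0.05 over all genes tested). Of all genes tested, 29.5% were called higher and 28.3% lower. The median log2 fold change of the 45 genes was 0.29, against -0.01 over all genes tested. Of the 26 genes that rose, 10 had an estimate of at least 2-fold: Fanci, Brca1, Exo1, Rad54b, Pole, Rad54l, Rad51ap1, Brip1, Chek1 and Polq. None of the 6 that fell (Fancb, Xrcc2, Atm, Atr, Rad50 and Xrcc1) did so by 2-fold. The share of all genes tested that was called at 2-fold or more was not computed. The 13 that did not pass were Brca2, Palb2, Xrcc3, Nbn, Fanca, Xrcc4, Prkdc, Parp2, Ogg1, Pold1, Rnf168, Mdc1 and Trp53bp1, with estimates between -0.15 for Ogg1 and 0.30 for Palb2. Only 1 of the 45, Rad54l, had all 16 vehicle mice above all 10 control mice, which held for 3.7% of genes tested, and none had all of them below, which held for 1.84%. Without the libraries that held Adipoq, which leaves 2 control mice, 12 genes were called higher and 2 lower (13.4% and 10.5% of all genes tested in that fit). With 2 surrogate variables 16 were called higher and 7 lower (22.6% and 20.4% of all genes). All 32 called genes kept the sign of their estimate in both.

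**Figure D1:**
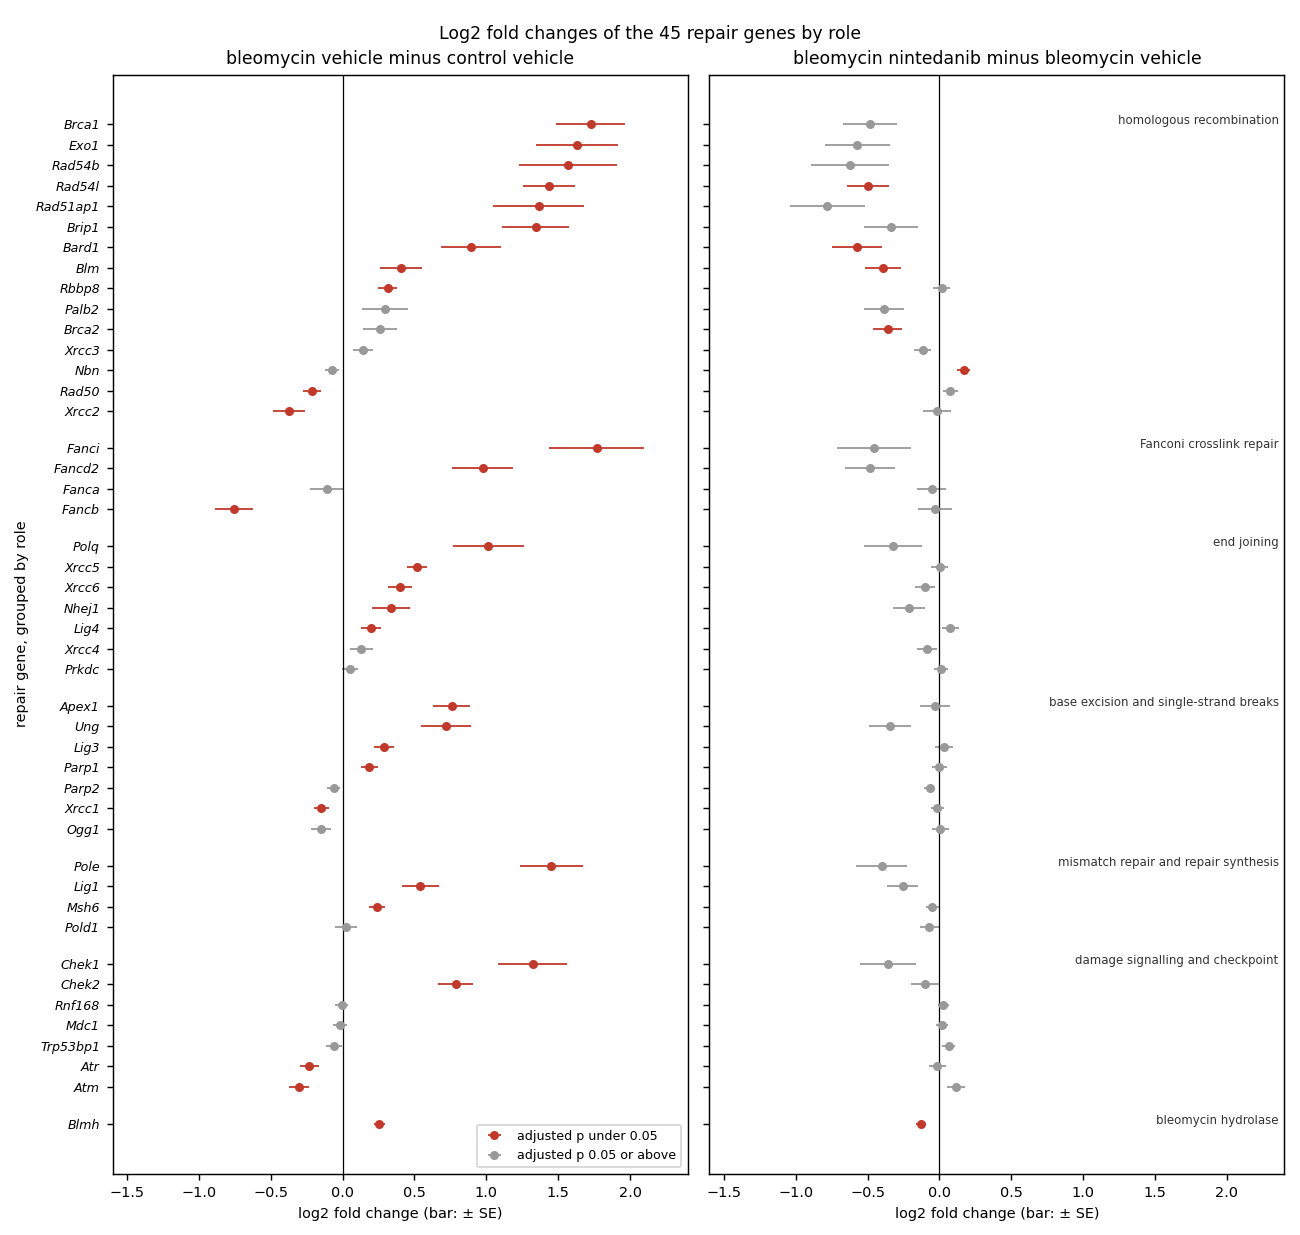
Log2 fold change of each repair gene with its standard error (bars), for bleomycin vehicle minus control vehicle (left) and bleomycin nintedanib minus bleomycin vehicle (right), grouped by role from top to bottom. On the left 26 genes in red lie above 0 and 6 below; on the right only Nbn lies above 0 in red and 5 genes lie below.

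Of the 15 genes of homologous recombination, 9 rose and 2 fell. Brca1, which with Bard1 forms the ubiquitin ligase that steers breaks into recombination (ENSMUSG00000017146, minus strand of chromosome 11 from 101488764 to 101551955 in GRCm38), had a lowest, median and highest value of 1.71, 1.96 and 3.02 CPM in control mice, 2.98, 6.68 and 12.6 CPM in vehicle mice and 1.86, 4.44 and 9.52 CPM in nintedanib mice. Of the 16 vehicle mice, 15 lay above every control mouse, and the control values were close together while the vehicle values spread over a wide range. The rise was 3.31-fold (log2 1.73 ± 0.24 SE, edgeR adjusted p = 7.36e-08). Bard1, its partner, rose by a log2 of 0.90 ± 0.21, with medians of 1.73 CPM in control and 3.27 CPM in vehicle mice. Rad54l, a motor protein that aids strand exchange (ENSMUSG00000028702, minus strand of chromosome 4 from 116094264 to 116123690), had 1.28, 1.57 and 2.19 CPM in control mice, 2.19, 4.68 and 7.26 CPM in vehicle mice and 1.56, 3.34 and 4.88 CPM in nintedanib mice. Its lowest vehicle value and highest control value both round to 2.19 CPM, so the groups met without crossing. The rise was 2.7-fold (log2 1.43 ± 0.18, edgeR adjusted p = 1.23e-08), and 15.36% of its exon bases are shared with Lrrc41 on the other strand.

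Other genes of strand exchange and resection rose too, by log2 changes from 0.31 for Rbbp8 to 1.63 for Exo1. Exo1, a nuclease that resects broken ends, had 0.484, 0.848 and 1.25 CPM in control mice, 0.754, 2.46 and 5.78 CPM in vehicle mice and 1.02, 1.64 and 3.50 CPM in nintedanib mice, a rise of 3.10-fold (log2 1.63 ± 0.29). Rad54b, a relative of Rad54l, had 0.277, 0.559 and 1.11 CPM in control, 0.343, 1.65 and 3.88 CPM in vehicle and 0.419, 0.991 and 2.50 CPM in nintedanib mice (log2 1.57 ± 0.34). It shares 35.77% of its exon bases with Fsbp on the same strand, so the reads of this pair cannot be told apart there. Both genes were among the least abundant of the set, and a few vehicle mice overlapped the control mice. Rad51ap1, which aids strand pairing, had 0.538, 1.05 and 4.54 CPM in control mice, 0.617, 3.83 and 6.32 CPM in vehicle mice and 0.898, 1.80 and 4.43 CPM in nintedanib mice. A single control mouse gave the 4.54 CPM and the next one 1.65 CPM, and without it the log2 change of Rad51ap1 moved from 1.37 ± 0.32 to 1.76. Brip1, a helicase bound to Brca1, rose by a log2 of 1.34 ± 0.23 and Blm, the Bloom syndrome helicase, by 0.41 ± 0.15. Rbbp8, which starts resection, rose by 0.31 ± 0.07.

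Several early sensors and mediators of recombination fell or did not pass the test. Rad50 and Nbn are subunits of the complex that first binds broken ends. Rad50 had 46.8, 51.9 and 55.5 CPM in control mice, 35, 43.8 and 53.7 CPM in vehicle mice and 37.8, 46.1 and 56.9 CPM in nintedanib mice, and it fell in vehicle mice by 0.21 on the log2 scale (SE 0.06, edgeR adjusted p = 0.0037). Nbn had 24.7, 25.9 and 27.2 CPM in control, 20.8, 24.7 and 28.7 CPM in vehicle and 22.6, 26.7 and 33.2 CPM in nintedanib mice, with no call in vehicle against control mice (log2 -0.07 ± 0.05, edgeR adjusted p = 0.21). The ranges of the 3 groups overlapped for both genes. Brca2, a mediator of strand exchange, had 3.6, 4.66 and 5.47 CPM in control, 3.31, 5.43 and 8.61 CPM in vehicle and 2.78, 4.50 and 6.18 CPM in nintedanib mice. Its estimate in vehicle mice was 0.26 ± 0.12 (edgeR adjusted p = 0.051), and that of Palb2, which ties Brca2 to Brca1, was 0.30 ± 0.16 (edgeR adjusted p = 0.11). Of the other mediators, Xrcc2 fell by 0.37 on the log2 scale (SE 0.11), from a median of 5.70 CPM in control to 4.76 CPM in vehicle mice, and Xrcc3 had an estimate of 0.14 ± 0.07 without a call.

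**Figure D2:**
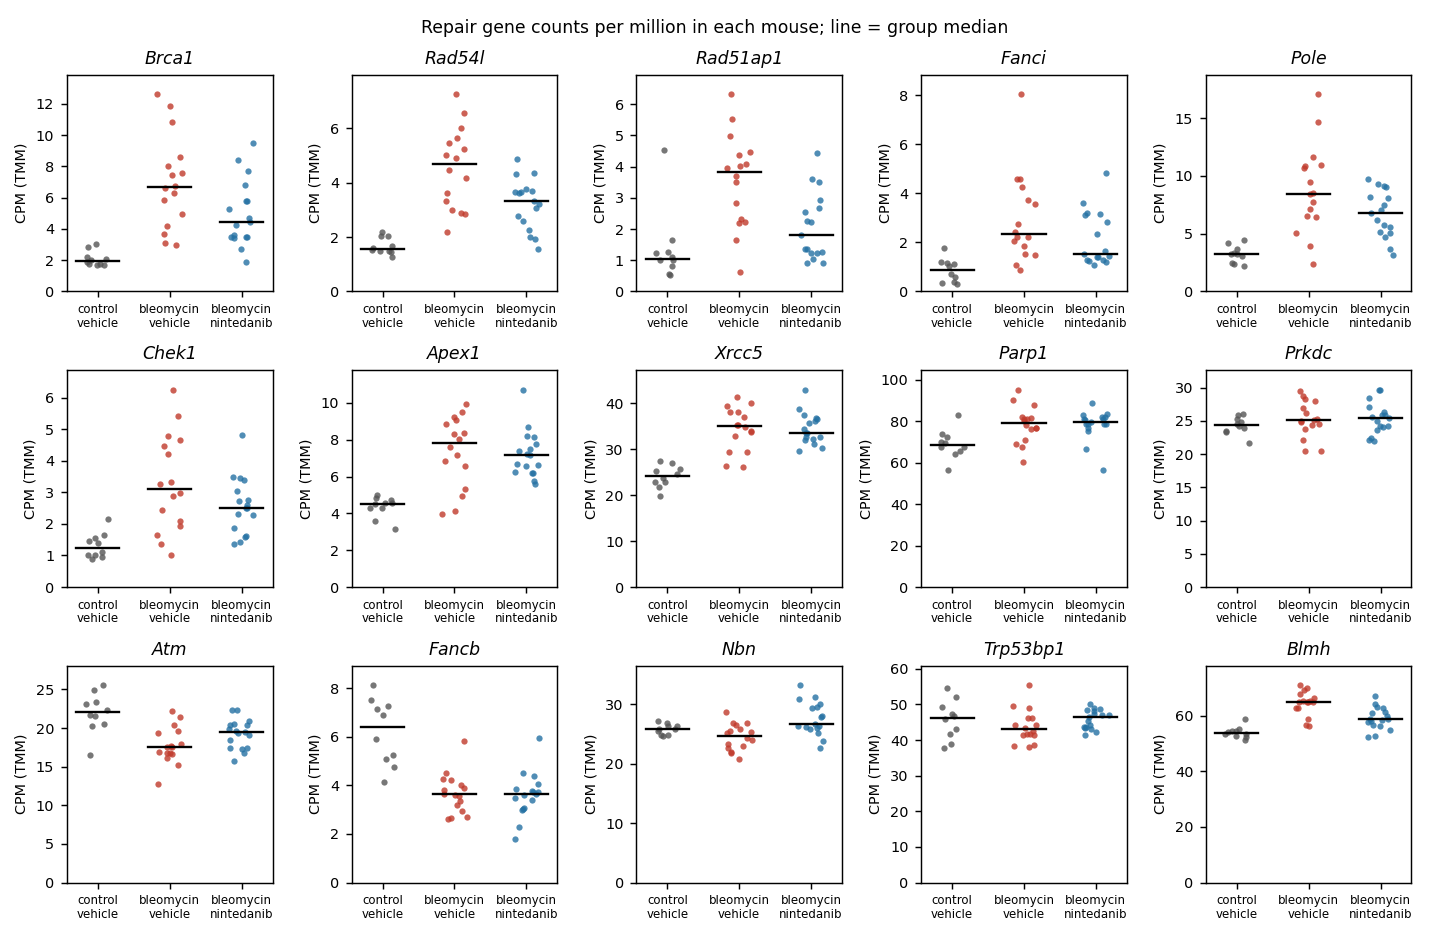
TMM-scaled CPM (vertical axes, each from 0) of 15 repair genes in every mouse, with 1 point per mouse and a line at the group median. Control mice lie close together for Brca1, Rad54l and Chek1 while bleomycin vehicle mice spread widely; 1 control mouse stands apart for Rad51ap1, at 4.54 CPM.

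The 4 Fanconi genes went in different directions: 2 rose, 1 fell and 1 did not pass. Fanci and Fancd2 form the pair of proteins that is ubiquitinated at a crosslink. Fanci had 0.291, 0.860 and 1.77 CPM in control mice, 0.891, 2.34 and 8.05 CPM in vehicle mice and 1.1, 1.52 and 4.85 CPM in nintedanib mice, a rise of 3.40-fold in vehicle mice (log2 1.77 ± 0.33). It was the largest estimate among the 45, at a low level, and 15.95% of its exon bases are shared with Polg on the other strand. Fancd2 had 1.60, 1.93 and 3.54 CPM in control, 1.71, 4.14 and 7.63 CPM in vehicle and 1.62, 2.94 and 5.32 CPM in nintedanib mice (log2 0.97 ± 0.21). Fancb, a subunit of the core complex that ubiquitinates this pair, went the other way, with 4.15, 6.41 and 8.12 CPM in control mice, 2.61, 3.63 and 5.82 CPM in vehicle mice and 1.81, 3.65 and 5.96 CPM in nintedanib mice. It fell by 0.76 on the log2 scale in vehicle mice (SE 0.13, edgeR adjusted p = 6.79e-06), and 12 of 16 vehicle mice lay below every control mouse. Fanca, of the same core complex, had an estimate of -0.11 ± 0.12 and no call, with 10.5% of its exon bases shared with Zfp276 on the other strand.

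Among the 7 genes of end joining, 5 rose and 2 did not pass. Xrcc5 and Xrcc6 encode the Ku heterodimer, the ring that slides onto broken ends. Xrcc5 had 19.7, 24.2 and 27.5 CPM in control mice, 26, 34.9 and 41.4 CPM in vehicle mice and 29.5, 33.5 and 42.9 CPM in nintedanib mice. Its rise was small in size and large against the spread between mice: 1.43-fold (log2 0.52 ± 0.07, edgeR adjusted p = 3.04e-08), with 14 of 16 vehicle mice and 17 of 17 nintedanib mice above every control mouse. Xrcc6 had 16.2, 19.6 and 35.1 CPM in control, 21.7, 26.9 and 32 CPM in vehicle and 18.7, 25.4 and 30.3 CPM in nintedanib mice. The control value of 35.1 CPM came from 1 mouse and the next was 20.1 CPM; the rise of Xrcc6 was 0.40 ± 0.08 on the log2 scale with that mouse and 0.52 without it. Prkdc, the kinase that Ku recruits, had 21.7, 24.4 and 26.1 CPM in control, 20.4, 25.1 and 29.5 CPM in vehicle and 21.9, 25.4 and 29.7 CPM in nintedanib mice (log2 0.05 ± 0.05, no call). The 3 groups thus overlapped for Prkdc. They also did for Xrcc6, with 0 of 16 vehicle mice above every control mouse. Both Ku genes were called higher, and Prkdc was not. Polq, the polymerase of an alternative end joining route, had 0.582, 1.46 and 1.97 CPM in control, 1.18, 2.60 and 5.66 CPM in vehicle and 0.778, 2.02 and 4.38 CPM in nintedanib mice (log2 1.01 ± 0.24). Of the ligation step, Lig4 rose by 0.20 ± 0.07 and Nhej1 by 0.33 ± 0.13, and Xrcc4 had an estimate of 0.13 ± 0.08. Nhej1, a factor that aids ligation, had 1.35, 2.21 and 3.29 CPM in control, 2.09, 2.65 and 3.59 CPM in vehicle and 1.59, 2.39 and 3.34 CPM in nintedanib mice, and lost its call in 5 of 10 alternatives.

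Of the 7 genes of base excision and single-strand break repair, 4 rose and 1 fell. Apex1, the endonuclease that cuts at a site left without a base, had 3.14, 4.52 and 5 CPM in control mice, 3.95, 7.83 and 9.93 CPM in vehicle mice and 5.61, 7.16 and 10.7 CPM in nintedanib mice. The rise was 1.69-fold in vehicle mice (log2 0.76 ± 0.13), but 61.67% of the exon bases of Apex1 are shared with Pip4p1 on the other strand, and its value is uncertain while the strand setting of the counting is not given. Ung, which removes uracil, had 2.38, 2.72 and 3.65 CPM in control, 2.35, 4.74 and 7.97 CPM in vehicle and 2.07, 3.80 and 5.99 CPM in nintedanib mice (log2 0.72 ± 0.17). Parp1, the sensor of strand breaks that makes poly(ADP-ribose), was the most abundant of the set, with 56.2, 68.7 and 82.8 CPM in control, 60.3, 79.3 and 95.2 CPM in vehicle and 56.3, 79.7 and 89.0 CPM in nintedanib mice. The groups overlapped broadly, and the rise of Parp1 was 0.19 ± 0.06 on the log2 scale (edgeR adjusted p = 0.0081). Its relative Parp2 had 26.3, 28.3 and 30.6 CPM in control, 23.6, 27.3 and 30.6 CPM in vehicle and 23.2, 25.5 and 30.3 CPM in nintedanib mice, with no call (log2 -0.06 ± 0.05). Lig3, the ligase of single-strand breaks, had 20.6, 23 and 25.3 CPM in control, 20.1, 28 and 36 CPM in vehicle and 22.5, 29.5 and 32.5 CPM in nintedanib mice (log2 0.29 ± 0.07), and 25.07% of its exon bases are shared with Rffl. Xrcc1, the scaffold that holds Lig3, fell by 0.15 on the log2 scale (SE 0.05), and Ogg1, which removes oxidised guanine, had an estimate of -0.15 ± 0.07 (edgeR adjusted p = 0.056).

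Mismatch repair and repair synthesis held 4 genes, of which 3 rose. Pole, the polymerase of the leading strand, had 2.19, 3.23 and 4.48 CPM in control mice, 2.4, 8.46 and 17.1 CPM in vehicle mice and 3.17, 6.77 and 9.70 CPM in nintedanib mice, a rise of 2.74-fold in vehicle mice (log2 1.45 ± 0.22, edgeR adjusted p = 3.92e-07). Lig1, which seals newly made strands, had 17.3, 18.8 and 21.2 CPM in control, 15.0, 28.2 and 42.3 CPM in vehicle and 16.8, 21 and 30.8 CPM in nintedanib mice (log2 0.54 ± 0.13). For Lig1, 12 of 16 vehicle mice lay above every control mouse and 2 below every one. Msh6, a mismatch sensor, had 21.7, 26.2 and 29.6 CPM in control, 25.6, 31 and 36.1 CPM in vehicle and 25.3, 29.4 and 33.7 CPM in nintedanib mice (log2 0.24 ± 0.05). Pold1, the polymerase of the lagging strand, had an estimate of 0.02 ± 0.08 and no call, at medians of 36.6 and 37.1 CPM.

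The 7 genes of damage signalling were split, with 2 higher, 2 lower and 3 not called. The effector kinases rose. Chek1 had 0.899, 1.24 and 2.16 CPM in control mice, 1.02, 3.11 and 6.25 CPM in vehicle mice and 1.38, 2.52 and 4.81 CPM in nintedanib mice (2.50-fold in vehicle mice, log2 1.32 ± 0.24), and Chek2 had 3.35, 4.75 and 6.96 CPM in control, 5.81, 8.84 and 12.3 CPM in vehicle and 6.41, 8.10 and 10.9 CPM in nintedanib mice (log2 0.79 ± 0.12). The kinases upstream of them were lower. Atm had 16.5, 22 and 25.5 CPM in control, 12.8, 17.5 and 22.3 CPM in vehicle and 15.8, 19.5 and 22.4 CPM in nintedanib mice. It fell by 0.31 on the log2 scale in vehicle mice (SE 0.07, edgeR adjusted p = 0.0002), with overlap between the groups, and kept this call in 10 of 10 alternatives. Atr fell by 0.23 (SE 0.07), from a median of 19.9 to 16.9 CPM. Trp53bp1, which protects ends from resection, had 37.6, 46.3 and 54.6 CPM in control, 38, 43 and 55.4 CPM in vehicle and 41.5, 46.5 and 50.1 CPM in nintedanib mice (log2 -0.06 ± 0.05, no call, 15.04% of exon bases shared with Tubgcp4). Mdc1 and Rnf168, which recruit it to damaged chromatin, had estimates of -0.02 ± 0.05 and -0.01 ± 0.05.

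Blmh encodes bleomycin hydrolase, a cysteine protease that inactivates bleomycin (ENSMUSG00000020840, plus strand of chromosome 11 from 76924809 to 76987379). It had 51.4, 53.9 and 59.0 CPM in control mice, 56.1, 65.0 and 70.9 CPM in vehicle mice and 52.4, 58.8 and 67.0 CPM in nintedanib mice. Of the 16 vehicle mice, 13 lay above every control mouse. The nintedanib median lay between those of the other groups, and the nintedanib mice overlapped both, with 7 of 17 above every control mouse and 3 below every vehicle mouse. The rise in vehicle mice was 1.19-fold (log2 0.25 ± 0.04, edgeR adjusted p = 3.76e-07).

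Levels of different genes were compared per length, as RPKM, which is CPM divided by the exon length in kilobases. In control mice they ran from 0.107 ± 0.0497 RPKM (SD, n = 10) for Rad54b to 13 ± 1.3 RPKM for Parp1. Of the 17 repair genes under 1 RPKM in control mice, 14 rose and 1 fell in vehicle mice, with a median log2 fold change of 1.32. Of the 28 genes at 1 RPKM or more, 12 rose and 5 fell, with a median of 0.09. This split was not made over all genes tested, and the control values enter both the level and the fold change. After Parp1, the most abundant genes of the set in control mice were Nbn at 10.2 ± 0.345 RPKM, Rad50 at 9.58 ± 0.591, Xrcc5 at 9.42 ± 0.938 and Blmh at 9.19 ± 0.348. The changes overlapped between these ranges of level: the abundant Xrcc5 changed by 0.52 and the scarce Blm by 0.41 on the log2 scale. In vehicle mice Brca1 reached 0.816 ± 0.345 RPKM (SD, n = 16) and Xrcc5 13.5 ± 1.85 RPKM.

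**Figure D3:**
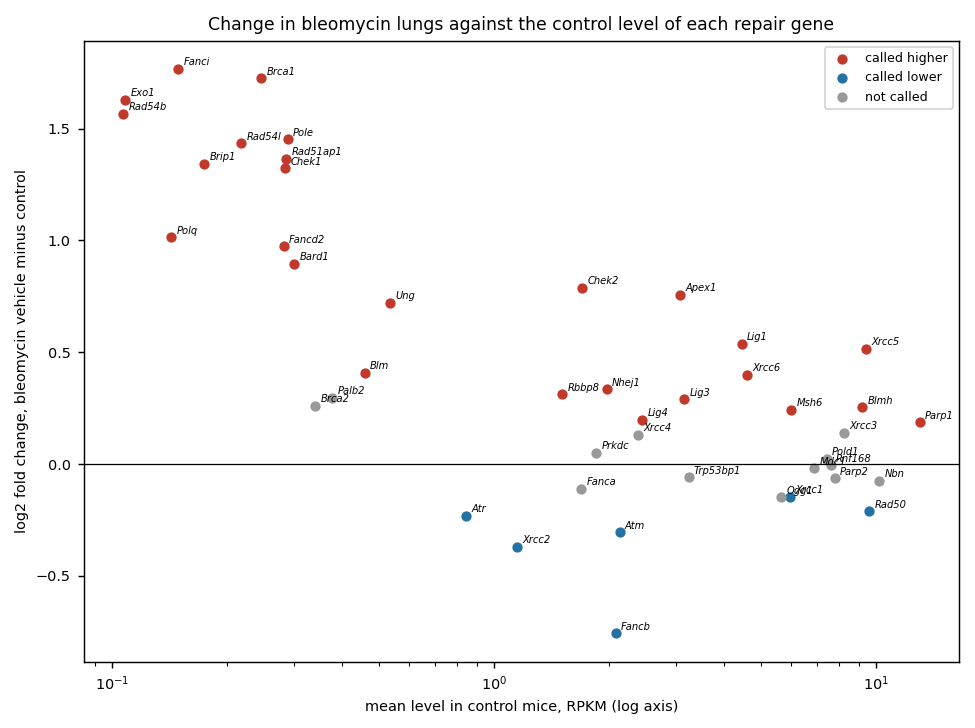
Mean level of each repair gene in control mice in RPKM (horizontal log axis) against its log2 fold change in bleomycin vehicle mice (vertical axis), coloured by call. Genes under 1 RPKM lie mostly above 0, with Fanci at 1.77 and Brca1 at 1.73, and genes at 1 RPKM or more lie nearer to 0, except Fancb at -0.76.

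Genes of cell division rose in the same mice. Of 20 mitotic genes, none of them among the 45, 20 rose in vehicle against control mice, with medians for Mki67 of 13.9 CPM in control, 61.3 CPM in vehicle and 29.8 CPM in nintedanib mice (log2 2.03 ± 0.30 in vehicle mice) and for Top2a of 10.9, 52.6 and 24.1 CPM (2.21 ± 0.30). The mean log2 CPM of these 20 genes, called the mitotic level here, had a range of 1.55 to 1.93 in control mice. The range was 1.78 to 4.49 in vehicle mice and 1.91 to 3.91 in nintedanib mice. With the mitotic level as a covariate in the fit, 2 of the 26 repair genes that had risen were still called higher, Rad54l at 0.55 ± 0.17 and Xrcc5 at 0.37 ± 0.09, and 18 of the 26 kept an estimate above 0. Of all genes tested, 11.2% were called higher and 6.34% lower in this fit. Brca1 moved from 1.73 to 0.37, Fanci from 1.77 to 0.02 and Rad54b from 1.57 to -0.50. Lower calls remained for Fancb (-0.68 ± 0.19), Atm (-0.36 ± 0.10) and Atr (-0.29 ± 0.10). Only 1 vehicle mouse and 1 nintedanib mouse had a mitotic level within the control range, so this fit extrapolates, and the treatment and the mitotic level cannot be told apart between control and bleomycin mice.

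**Figure D4:**
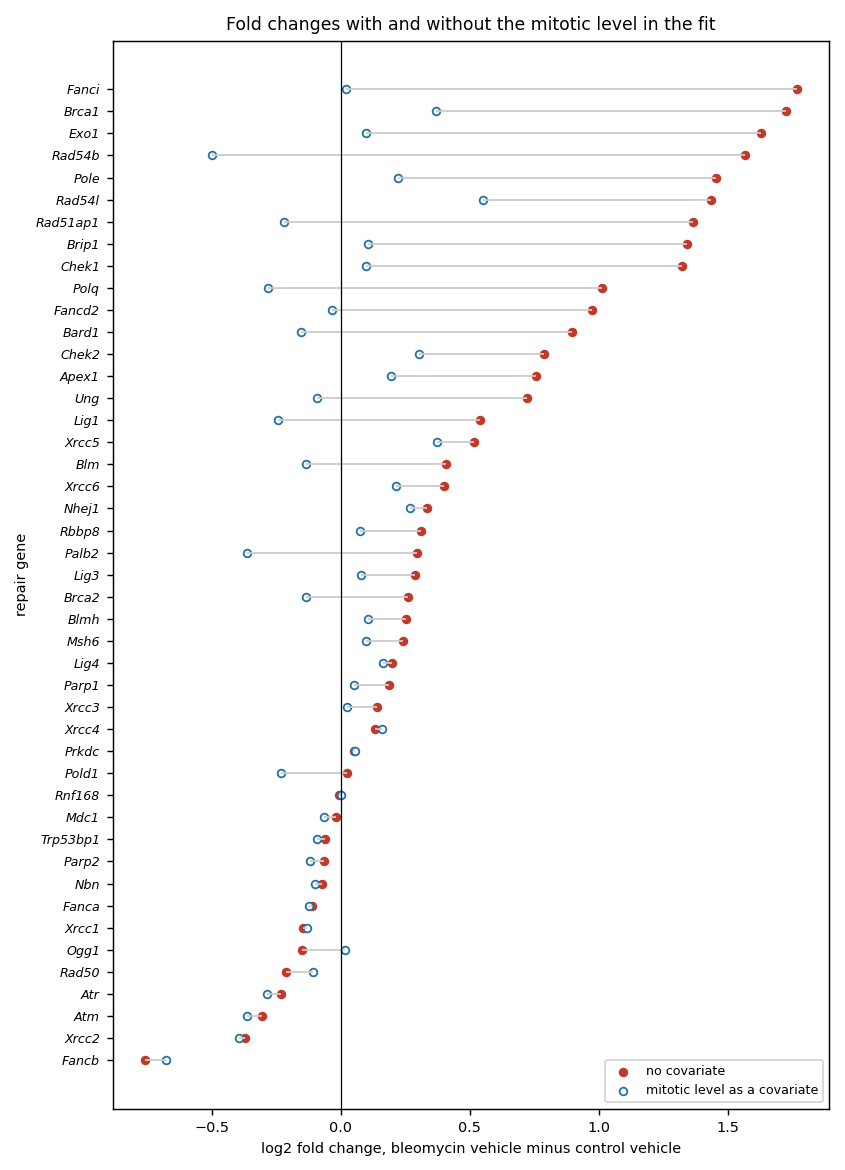
Log2 fold change of each repair gene in bleomycin vehicle minus control vehicle, without a covariate (filled points) and with the mitotic level in the fit (open points), joined by lines. Brca1 moves from 1.73 to 0.37 and Rad54b from 1.57 to -0.50, while Atm, Xrcc2 and Fancb hardly move.

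Within groups the repair genes followed the mitotic level to different degrees. Over the 16 vehicle mice, 25 of 45 genes correlated with it above 0 (permutation test with 100000 draws, adjusted over 315 relations). The share of all genes that would pass this test was not computed. Of the 45 genes, 21 reached r = 0.7, which 7.75% of all genes tested did. Of these 21 genes, 19 were among the 26 that rose. The mitotic level left a gap of 0.57 between 4 vehicle mice and the other 12, and of 0.55 between 12 nintedanib mice and the other 5, so values within the 12 mice of each are given too. Within the 12 vehicle mice, 12 of the 45 genes passed the permutation test with r above 0, and 11 reached r = 0.7. Within the 12 nintedanib mice 8 passed it with r above 0 and 7 reached r = 0.7, against 16 and 12 over all 17. Shares of all genes in these smaller sets were not computed. For Lig1, r was 0.96 (rho 0.91) in vehicle mice, with a permutation p of 1e-05, the smallest these draws can give, and adjusted values of 0.00024 for r and 0.00035 for rho. It was 0.96 without the 2 mice farthest from the median and 0.93 within the 12 mice. In nintedanib mice r of Lig1 was 0.80 over all 17 and 0.40 within the 12 (permutation test, adjusted p = 0.39). Brca1 had r = 0.92 (rho 0.92, permutation p of 1e-05 and 2e-05, adjusted 0.00024 and 0.00045) in vehicle mice, 0.92 without the 2 farthest and 0.91 within the 12, and 0.90 and 0.76 in the nintedanib sets. The value within the 12 nintedanib mice was 0.41 without the 2 farthest, so it rests on those mice. Blmh had r = 0.82 (rho 0.87, permutation p of 0.00018 and 6e-05, adjusted 0.0016 and 0.0009) in vehicle mice, 0.63 without the 2 farthest and 0.59 within the 12 (permutation test, adjusted p = 0.1), and 0.50 over the nintedanib mice.

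Several genes did not follow it. In vehicle mice Atm had r = 0.26 (rho 0.16, permutation p of 0.32 and 0.54, adjusted 0.54 and 0.77), and Nbn had r = 0.28 (rho 0.22, permutation p of 0.29 and 0.4, adjusted 0.51 and 0.65). Xrcc5 had r = 0.51 (rho 0.39, permutation p of 0.045 and 0.14, adjusted 0.12 and 0.31), and -0.02 without the 2 farthest mice, on which its relation rests. The 6 genes that fell had r between -0.26 and 0.26. In the 10 control mice 0 of the 45 relations passed the permutation test after adjustment (1 at an unadjusted p under 0.05), with r between -0.49 and 0.67. Over the 17 nintedanib mice 16 genes correlated above 0 and 1 below, Ogg1, with r = -0.59 (rho -0.66, permutation p of 0.012 and 0.0047, adjusted 0.042 and 0.023), -0.64 without the 2 farthest mice and -0.77 within the 12. Within number series A, 21 genes correlated above 0 over 11 vehicle mice and 12 over 13 nintedanib mice. There r for Brca1 was 0.91 and 0.90, and series B and C hold too few mice for a value. The shares of all genes that would pass in the control, nintedanib and series A sets were not computed.

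**Figure D5:**
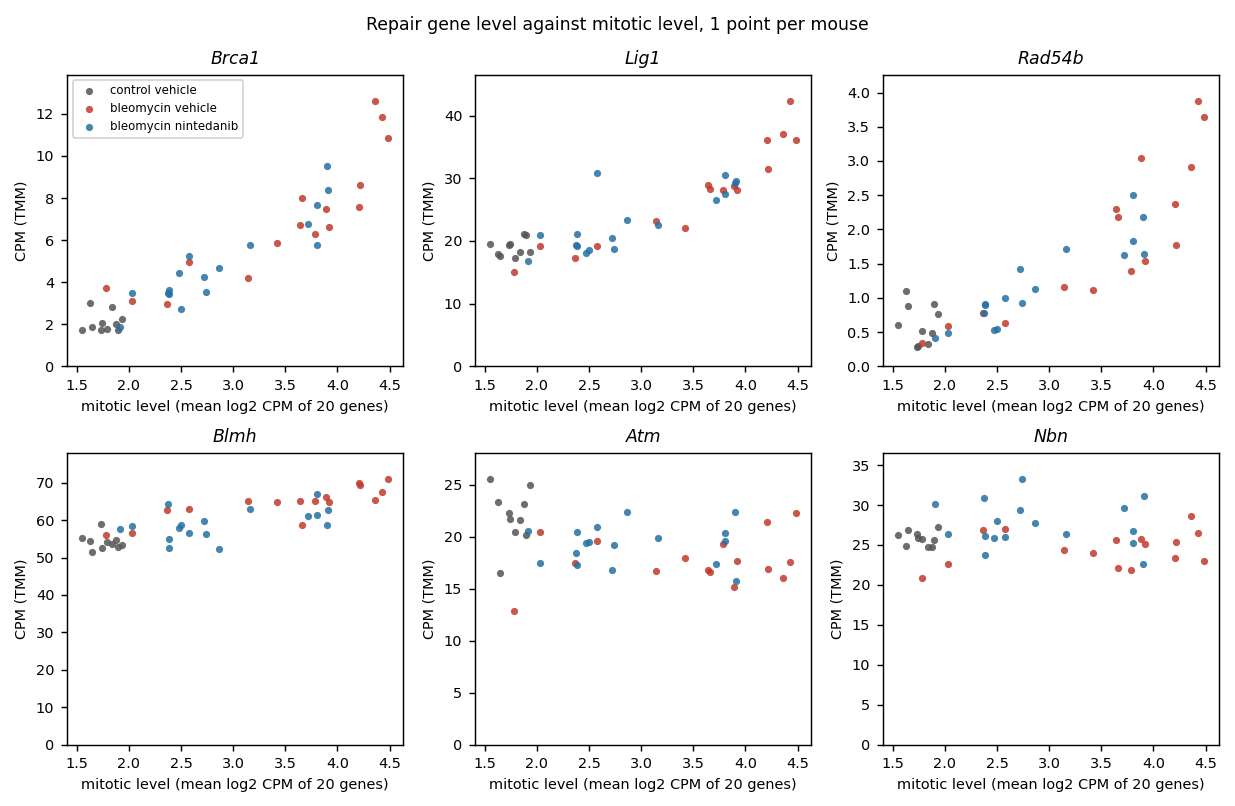
TMM-scaled CPM of 6 repair genes (vertical axes, each from 0) against the mitotic level (mean log2 CPM of 20 genes, horizontal axis), with 1 point per mouse coloured by group. Brca1, Lig1 and Rad54b climb with the mitotic level, Blmh less steeply, and Atm and Nbn do not; all control mice lie at 1.93 or below.

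Promoter sequences of some genes that rose, each with a match, are shown because cell cycle promoters share known elements: the E2F site, the CHR element and the CCAAT box. RefSeq windows of 300 bases, from 250 before to 50 after a start, were matched for 36 of the 45 genes by symbol (GRCm38.p6). The letters searched on both strands were TTTCCCGC, TTTGGCGC, TTTCGCGC and TTTGCCGC for E2F, TTTGAA for the CHR and CCAAT for the CCAAT box, chosen after several candidate elements had been looked at in these windows. Stretches before the start with no annotated exon base are printed, 5′ to 3′ on the strand of the gene, with matches on either strand in capitals. They are Brca1 chr11:101551956-101552148 (minus strand), Rad54l chr4:116123691-116123839 (minus strand), Rad51ap1 chr6:126939588-126939837 (minus strand), Chek2 chr5:110839778-110839978 (plus strand), Polq chr16:37011536-37011785 (plus strand), Bard1 chr1:71103147-71103222 (minus strand).
Brca1: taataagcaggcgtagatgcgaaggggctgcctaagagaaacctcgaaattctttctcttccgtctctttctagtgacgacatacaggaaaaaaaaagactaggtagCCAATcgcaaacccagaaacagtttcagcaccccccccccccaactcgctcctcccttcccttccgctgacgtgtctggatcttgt
Rad54l: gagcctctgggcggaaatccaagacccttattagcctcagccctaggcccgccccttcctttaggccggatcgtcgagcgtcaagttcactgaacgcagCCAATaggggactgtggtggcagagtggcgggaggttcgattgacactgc
Rad51ap1: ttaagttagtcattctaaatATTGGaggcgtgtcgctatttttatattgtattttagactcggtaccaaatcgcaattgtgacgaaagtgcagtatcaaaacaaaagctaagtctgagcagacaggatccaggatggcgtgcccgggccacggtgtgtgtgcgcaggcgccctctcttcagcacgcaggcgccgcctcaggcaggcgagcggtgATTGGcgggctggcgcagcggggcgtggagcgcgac
Chek2: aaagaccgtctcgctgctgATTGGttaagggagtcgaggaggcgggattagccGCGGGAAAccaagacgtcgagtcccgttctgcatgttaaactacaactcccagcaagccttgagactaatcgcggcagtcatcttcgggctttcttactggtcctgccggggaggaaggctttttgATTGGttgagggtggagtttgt
Polq: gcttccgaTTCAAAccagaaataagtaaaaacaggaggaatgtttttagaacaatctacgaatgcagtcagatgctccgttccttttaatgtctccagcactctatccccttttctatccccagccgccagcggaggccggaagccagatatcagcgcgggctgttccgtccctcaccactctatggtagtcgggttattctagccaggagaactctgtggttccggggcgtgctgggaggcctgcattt
Bard1: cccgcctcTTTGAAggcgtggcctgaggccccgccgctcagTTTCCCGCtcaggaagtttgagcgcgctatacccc
In Brca1, Rad54l and Rad51ap1 the capitals are CCAAT or its reverse complement, in Chek2 an E2F match between CCAAT boxes, in Polq a CHR match and in Bard1 a CHR and an E2F match. Other genes that rose had none of these letters in their matched windows: Chek1, Fanci, Lig3, Lig4, Nhej1, Parp1, Ung and Blmh. Over whole windows, E2F letters were found in 8 of 36 repair genes (22.2%; Bard1, Brca2, Chek2, Lig1, Mdc1, Msh6, Pold1 and Xrcc6), against 2.6% of 27025 genes and 2.26% of 32851 windows. Of the 21 matched genes that rose, 5 held them, and of the 15 others 3 did. CHR letters were found in 2 of 36 genes against 20.23% of genes and 17.89% of windows. CCAAT was found in 18 of 36 against 41.06% of genes and 37.41% of windows. Of the 21 matched genes that rose, 2 held CHR letters and 10 held CCAAT, and of the 15 others 0 and 8 did. A match is a string of letters and not a measured site.

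In nintedanib against vehicle mice, 1 of the 45 repair genes rose, 5 fell and 39 did not pass (edgeR, adjusted p under 0.05), where 3.21% of all genes tested were called higher and 4.1% lower. The 5 that fell were Bard1, Blm, Brca2 and Rad54l, all of homologous recombination, and Blmh, and the 1 that rose was Nbn. The estimates of 33 genes lay below 0, with a median of -0.09 against -0.0022 over all genes. The 16 vehicle mice are the same in this comparison and in that with control mice, so their values enter both. Brca2 fell by 0.36 on the log2 scale (SE 0.10, edgeR adjusted p = 0.023), with values under the vehicle median of 5.43 CPM in 16 of 17 nintedanib mice. Rad54l fell by 0.50 (SE 0.15, edgeR adjusted p = 0.031), Bard1 by 0.57 (SE 0.17, adjusted p = 0.036) and Blm by 0.39 (SE 0.12, adjusted p = 0.043). The medians of these genes in nintedanib mice were 4.50 CPM for Brca2, 3.34 CPM for Rad54l, 1.99 CPM for Bard1 and 4.16 CPM for Blm, and the ranges of the groups overlapped for each. Blmh fell by 0.13 (SE 0.03, edgeR adjusted p = 0.014), with values under the vehicle median of 65.0 CPM in 16 of 17 nintedanib mice.

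The rise of Nbn under nintedanib was small, 1.12-fold (log2 0.17 ± 0.04, edgeR adjusted p = 0.016). Of the 17 nintedanib mice, 15 lay above the vehicle median of 24.7 CPM and 6 above every vehicle mouse. Nbn (ENSMUSG00000028224, plus strand of chromosome 4 from 15957925 to 15992589) kept this call in 10 of 10 alternatives, at 0.18 ± 0.05 with the mitotic level in the fit. The 5 lower calls did not hold so. By edgeR, 0 were called with the mitotic level in the fit, where 243 of all genes (1.64%) were called lower. At an unadjusted p under 0.05, 2 of the 45 genes were then lower. Without the libraries that held Adipoq 0 were called, where 1.81% of all genes were (10 of the 45 lower at an unadjusted p under 0.05). Shares of all genes at an unadjusted p under 0.05 were not computed for either fit. All 5 estimates stayed below 0 in both. Called lower were 2 genes with only these groups in the fit (Blmh and Brca2), 3 within number series A (Blmh, Brca2 and Rad54l) and 1 with 2 surrogate variables (Blmh). Of all genes tested, 2.68%, 4.2% and 3.4% were called lower in these fits. DESeq2 called 6 genes lower, and 5.21% of all genes. Of the 20 mitotic genes, 4 fell and 16 did not pass in this comparison, with a median estimate of -0.66. The largest estimate among the 45 was that of Rad51ap1, at -0.78 ± 0.26 (edgeR adjusted p = 0.055). Leaving out the control mouse with 4.54 CPM, which belongs to neither group, gave Rad51ap1 an adjusted p of 0.03 with edgeR.

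The other genes named above were not called under nintedanib. For Rad54b the estimate was -0.62 ± 0.27, for Exo1 -0.57 ± 0.23, for Palb2 -0.38 ± 0.14 and for Brip1 -0.34 ± 0.19. Estimates were -0.48 ± 0.19 for Brca1 (edgeR adjusted p = 0.10), -0.49 ± 0.17 for Fancd2, -0.46 ± 0.26 for Fanci, -0.40 ± 0.18 for Pole, -0.36 ± 0.19 for Chek1, -0.34 ± 0.15 for Ung, -0.32 ± 0.20 for Polq, -0.26 ± 0.11 for Lig1 and -0.21 ± 0.11 for Nhej1. Smaller ones included 0.12 ± 0.06 for Atm, -0.07 ± 0.04 for Parp2 and 0.06 ± 0.05 for Trp53bp1. Prkdc had 0.01 ± 0.05, Xrcc5 0.00 ± 0.06 and Parp1 -0.00 ± 0.05. These misses do not show that the groups were alike.

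Against control mice, which are the same 10 in both comparisons, nintedanib mice had 20 of the 45 genes higher, 6 lower and 19 not called, where 28.1% of all genes tested were called higher and 25.1% lower. Scaled by library totals alone, the split was 16 higher and 8 lower, where 21.9% and 32.7% of all genes tested were. Xrcc5 was higher by 0.52 ± 0.07 in both nintedanib and vehicle mice. Brca1 was higher by 1.24 ± 0.23 in nintedanib and by 1.73 ± 0.24 in vehicle mice, Rad54l by 0.94 ± 0.18 and 1.43 ± 0.18, and Blmh by 0.13 ± 0.04 and 0.25 ± 0.04. Rad51ap1 was not called in nintedanib mice, at 0.59 ± 0.31, but was called at 0.98 (edgeR adjusted p = 0.0055) without the control mouse with 4.54 CPM, and Fancd2, at 0.49 ± 0.21, lost its call without any 1 of control replicates 1, 4 and 6. The 6 lower genes under nintedanib were Fancb (-0.79 ± 0.13), Xrcc2 (-0.39 ± 0.11), Atr (-0.25 ± 0.07), Atm (-0.19 ± 0.07), Xrcc1 (-0.16 ± 0.05) and Parp2 (-0.13 ± 0.05). With the mitotic level in the fit 6 genes were called higher and 10 lower (18.9% and 14.9% of all genes tested). Without the libraries that held Adipoq, which leaves 2 control mice, 2 genes were called higher (Xrcc5 and Xrcc6) and 2 lower (Xrcc1 and Xrcc2), where 11.8% and 9.8% of all genes were, and all 26 called genes kept the sign of their estimate.

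A wider list of 106 other repair genes, all tested, gave 30 higher, 23 lower and 53 not called in vehicle against control mice, with a median log2 fold change of -0.0002. Of all genes tested, 29.5% were called higher and 28.3% lower, so these counts are near or below the background. In homologous recombination 7 of 26 rose and 5 fell, with Eme1, a subunit of a junction nuclease, at 1.82 ± 0.33. In base excision 6 of 17 rose and 3 fell, with Neil3, a glycosylase, at 1.86 ± 0.36 and Fen1, the flap nuclease, at 0.90 ± 0.29. In damage signalling 5 of 17 rose and 7 fell, with Clspn, the adaptor that lets Atr activate Chek1, at 2.22 ± 0.33 and Tonsl at 0.51 ± 0.10. Fanconi repair had 2 of 11 higher and 2 lower (Ube2t, the ubiquitin-conjugating enzyme of the pathway, 1.02 ± 0.22, and Fancc -0.35 ± 0.08), mismatch repair and synthesis 3 of 10 higher and 1 lower (Pole2 0.95 ± 0.19, Pcna, the sliding clamp, 0.38 ± 0.07), and end joining 3 of 10 higher and 2 lower (Shld1 -0.51 ± 0.09, Rif1 -0.34 ± 0.07). Nucleotide excision repair, which removes bulky lesions, had 4 of 15 higher and 3 lower (Xpc, its damage sensor, -0.39 ± 0.07, and Ddb1 0.32 ± 0.06). Under nintedanib, 0 of the 106 were called higher and 9 lower against vehicle mice by edgeR, where 3.21% and 4.1% of all genes tested were. At an unadjusted p under 0.05, 1 was higher and 22 were lower. The share of all genes at that limit was not computed. DESeq2 also called 0 higher and 9 lower.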

How the data were processed

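RNA was measured in 43 lung libraries. Per the labels' protocols, polyA RNA of the inferior lobe was made into directional libraries and read from 1 end. The deposited file is a single table of raw read counts, whole numbers for each gene and library. STAR 2.7.0f, R 3.6.0 and the GRCm38 build are named in the submitters' processing notes, while for the counting tool, its strand setting and the annotation nothing is stated (not given in the sources used here). Genes overlapping on either strand are therefore uncertain. Symbols, positions and union exon lengths came from GENCODE annotation of GRCm38, and all 21938 identifiers matched.

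The filter on low counts (filterByExpr with the groups, a minimum count of 10 and a minimum total of 15) kept 14836 genes, which hold 99.96% of counts. Groups were compared by the quasi-likelihood F test of edgeR (two-sided), fitted to all 43 libraries with a coefficient for each group, TMM scaling and robust estimation. P-values were adjusted over all tested genes by Benjamini-Hochberg, with a threshold of 0.05. Log2 CPM used a prior count of 2. The scripts were tested on simulated data. Versions were SciPy 1.17.1, pandas 2.3.3 and NumPy 2.4.6 under Python 3.11.15, and sva 3.50.0, DESeq2 1.42.0 and edgeR 4.0.16 under R 4.3.3.

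Alternatives were 10 planned (other scalings, DESeq2, no filter, fewer libraries, the number series as a term, surrogate variables, the mitotic level as a covariate) and 3 added after seeing the data, each without 1 control mouse. The members, lists, roles and alternatives were chosen with earlier results of these data known. Every member is accounted for by its call. Values by group are given for the 3 largest changes per role in vehicle against control, the 2 smallest p per role in nintedanib against vehicle, and Blmh, Brca1, Rad51ap1, Atm, Prkdc, Parp1 and Trp53bp1. Of the other repair genes the 2 largest called changes per role are named, except 1 that is not reported here, and of the mitotic genes Mki67 and Top2a. Other members named with values, such as Bard1, Rad54l, Rad50, Xrcc2 and Atr, were added after their values were seen.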

Additional observations from a re-analysis of the deposited data

Results flagged for a closer look

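The 45 repair genes were checked for a control mouse far from the other 9 by Dixon's ratio of gap to range. The bleomycin groups were not checked in this way. Chance flags about 1 in 20 such sets. Rad51ap1 had a highest control value of 4.54 CPM in control replicate 6, with the next at 1.65 CPM. Xrcc6 had a highest control value of 35.1 CPM in control replicate 1, with the next at 20.1 CPM. Pold1 had a lowest control value of 26.3 CPM, again in control replicate 6, with the next at 33.8 CPM. Blmh had a highest control value of 59.0 CPM in control replicate 4, with the next at 55.3 CPM. Each stayed in all fits unless stated. Without the mouse concerned, the log2 change in vehicle against control mice was 1.76 for Rad51ap1, 0.52 for Xrcc6 and 0.24 for Blmh.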

How the results depend on the processing

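Under RLE factors, library totals only, DESeq2, no filter on low counts and the number series as a term, the counts of repair genes called stayed within 1.5 times those reported in all 3 comparisons, and so did counts without each of control replicates 1, 4 and 6, an alternative chosen after seeing the data. Those 3 fits called 24 to 26 genes higher and 6 to 7 lower in vehicle against control mice, 1 higher and 5 to 6 lower in nintedanib against vehicle, and 19 to 20 higher and 6 to 8 lower in nintedanib against control.

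Other settings moved counts, and the cause was not tested. The shares over all genes in these fits are given with the results above. In vehicle against control mice, 12 genes were called higher and 2 lower without the libraries holding Adipoq (2 control mice left), 16 higher with 2 surrogate variables, and 2 higher and 3 lower with the mitotic level as a covariate. In nintedanib against vehicle mice, genes called lower numbered 2 with only these groups in the fit, 3 within series A, 0 without the Adipoq libraries, 1 with surrogate variables (Blmh) and 0 with the mitotic level. In nintedanib against control mice, 2 were higher and 2 lower without the Adipoq libraries, and 6 higher and 10 lower with the mitotic level.

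With the mitotic level as a covariate these estimates changed sign: in vehicle against control mice Bard1 (-0.15), Blm (-0.14), Brca2 (-0.14), Palb2 (-0.36), Pold1 (-0.23), Ogg1 (0.015), Rnf168 (0.0016), Fancd2 (-0.035), Lig1 (-0.24), Polq (-0.28), Rad51ap1 (-0.22), Rad54b (-0.50) and Ung (-0.093); in nintedanib against vehicle Rad54b (0.094), Brip1 (0.098), Apex1 (0.18), Chek2 (0.078), Parp1 (0.049), Ogg1 (-0.053), Pold1 (0.020), Msh6 (0.0018), Atr (0.0047), Chek1 (0.093), Fanci (0.14), Lig1 (0.028), Pole (0.041) and Polq (0.16); in nintedanib against control Bard1 (-0.37), Rad51ap1 (-0.51), Ung (-0.14), Lig1 (-0.21), Blm (-0.34), Xrcc3 (-0.053), Trp53bp1 (-0.018), Fancd2 (-0.17), Polq (-0.12) and Rad54b (-0.40). Without the Adipoq libraries Trp53bp1 changed to 0.052 in vehicle against control mice. Of the vehicle against control calls, Parp1 (edgeR adjusted p = 0.06) and Nhej1 (0.057) were lost without control replicate 6, and Nhej1 (0.052) and Lig4 (0.059) without replicate 4. Of the nintedanib against control calls, Parp1 (0.077) was lost without replicate 6 and Fancd2 without replicate 1, 4 or 6 (0.072, 0.062 and 0.098). No paired analysis was possible because the labels give no replicate numbers shared between groups. At this depth genes such as Rad54b and Exo1 rest on few reads, which limits their precision.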

Other observations

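Some repair genes outside the named ones had small but tight differences, chosen here after their values were seen. Parp3, a poly(ADP-ribose) polymerase of the same family as Parp1 and Parp2, had 62.6, 66.7 and 81.9 CPM (lowest, median, highest) in control mice, 88.6, 108 and 149 CPM in vehicle mice and 79.9, 115 and 127 CPM in nintedanib mice. All 16 vehicle mice lay above all control mice, which held for 3.7% of genes tested, with a log2 change of 0.76 ± 0.07 (edgeR adjusted p = 1.31e-11). Dna2, a nuclease and helicase that resects ends, rose in vehicle mice by 0.45 ± 0.10 and fell under nintedanib against vehicle by 0.45 (SE 0.08, edgeR adjusted p = 0.00072), with medians of 13.8, 17.1 and 12.9 CPM in control, vehicle and nintedanib mice. Tdg, a glycosylase that acts on mismatched thymine, had medians of 29.6, 37.2 and 33.8 CPM and fell under nintedanib against vehicle by 0.18 (SE 0.04, edgeR adjusted p = 0.0047). Glycosylases of base excision went in different directions in vehicle against control mice: Neil3 and Tdg rose, while Mutyh fell by 0.56 (SE 0.13) and Nthl1 by 0.44 (SE 0.08).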
